A study of Mus musculus with 10 samples.

Results

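Natural killer (NK) receptor genes were followed in whole-tumor RNA of the mouse melanoma B16, a line that is grown as transplants. The members were the lectin-like receptor genes Klrk1, Klrd1, Klrc1, Klrg1 and Klre1, the Ly49 genes Klra1, Klra3, Klra7 and Klra8, and Ncr1. A probe set was taken where the array annotation gave it exactly 1 of these symbols. The rule found 11 probe sets for 9 of the 10 genes, among 34945 probe sets annotated to 1 gene. Klra3 had no probe set of its own, and its values come from a probe set that also carries the symbol Klra9.

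The arrays covered 5 Bach2-deficient tumors and 5 wild-type (WT) tumors, all on the C57BL/6 background. Bach2 encodes a transcriptional repressor of lymphocytes. Neither the deleted stretch of Bach2 nor the place of the deficiency, host or melanoma cells, is given in the labels. Nothing there ties tumors to animals, and p-values therefore measure only the spread between these samples, which may be technical. Values are log2 expression of whole dissociated tumors, made by the authors with RMA (robust multi-array average). In such bulk samples a different number of cells of a type and a different amount of RNA per cell cannot be told apart.

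NK cells read the balance between activating receptors, which signal through adaptor proteins, and inhibitory receptors, which carry their own inhibitory motifs and mostly recognise MHC class I molecules. NKG2D, encoded by Klrk1, NKp46, encoded by Ncr1, and Ly49H, encoded by Klra8, are activating. NKG2A (Klrc1), KLRG1 (Klrg1) and the Ly49 receptors A, C and G (Klra1, Klra3 and Klra7) are inhibitory, and CD94 (Klrd1) and KLRE1 (Klre1) are partner chains that work with either kind. Activated CD8 T cells also use NKG2D, CD94, NKG2A and KLRG1, while NKp46 is largely kept to NK cells and related innate lymphocytes. All the lectin-like genes lie on mouse chromosome 6, and Ncr1, which belongs to the immunoglobulin superfamily, lies on chromosome 7.

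The array annotation warns of shared probes in this family. All 3 probe sets of Klra8 and Klra7 are of the _x_at kind, whose probes may also bind transcripts of similar genes. No transcript or probe sequences were compared here. Promoter windows, which bear on the genes' starts and not on the probes, are shown to compare the Ly49 genes with each other. The RefSeq table (GRCm38.p6) held windows of 250 bases before to 50 bases after the start for 8 of the 10 genes, without Klrd1 and Klrg1. Windows are printed 5′ to 3′ for Klra8, Klra7 and Klra3, for Klra1, whose probe set did not differ, and for Klrk1. The first 3 are Ly49 genes whose _x_at probe sets rose in Bach2-deficient tumors, that of Klra3 being shared with Klra9. Capitals mark matches, on either strand, to TGANTCA (bound by AP-1 and BACH factors), GGTGTGA (a T-box motif) or TGTGGT (a RUNX motif).
Klrk1 (chr6:129623815-129624114, minus strand): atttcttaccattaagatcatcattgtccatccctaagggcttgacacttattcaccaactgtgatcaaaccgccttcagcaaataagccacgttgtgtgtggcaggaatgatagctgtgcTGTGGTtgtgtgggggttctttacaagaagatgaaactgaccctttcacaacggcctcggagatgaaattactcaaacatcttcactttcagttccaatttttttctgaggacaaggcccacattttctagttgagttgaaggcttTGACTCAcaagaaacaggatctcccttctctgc
Klra8 (chr6:130129849-130130148, minus strand): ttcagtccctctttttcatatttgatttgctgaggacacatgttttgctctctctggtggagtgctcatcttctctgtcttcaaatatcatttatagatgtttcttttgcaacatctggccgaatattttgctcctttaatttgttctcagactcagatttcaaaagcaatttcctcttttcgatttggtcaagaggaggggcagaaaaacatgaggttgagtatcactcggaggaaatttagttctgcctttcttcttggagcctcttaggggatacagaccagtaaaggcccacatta
Klra7 (chr6:130233273-130233572, minus strand): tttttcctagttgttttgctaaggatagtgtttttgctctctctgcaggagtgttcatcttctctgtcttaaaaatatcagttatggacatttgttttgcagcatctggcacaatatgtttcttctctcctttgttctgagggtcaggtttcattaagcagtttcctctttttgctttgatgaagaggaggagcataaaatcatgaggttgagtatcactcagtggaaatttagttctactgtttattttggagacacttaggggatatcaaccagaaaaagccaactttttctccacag
Klra3 (chr6:130337577-130337876, minus strand): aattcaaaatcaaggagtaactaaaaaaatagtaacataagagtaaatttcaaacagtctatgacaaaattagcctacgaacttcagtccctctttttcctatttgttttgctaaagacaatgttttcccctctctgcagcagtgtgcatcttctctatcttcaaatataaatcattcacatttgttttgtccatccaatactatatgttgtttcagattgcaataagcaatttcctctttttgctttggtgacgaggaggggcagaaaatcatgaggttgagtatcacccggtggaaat
Klra1 (chr6:130386825-130387124, minus strand): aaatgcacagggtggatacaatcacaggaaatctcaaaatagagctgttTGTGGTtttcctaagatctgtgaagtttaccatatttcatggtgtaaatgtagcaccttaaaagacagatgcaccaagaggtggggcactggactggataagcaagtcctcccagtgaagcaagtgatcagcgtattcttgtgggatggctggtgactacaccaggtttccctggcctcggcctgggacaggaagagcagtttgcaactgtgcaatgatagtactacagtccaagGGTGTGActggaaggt
The Klra8 and Klra7 windows were identical at 79.9% of 289 aligned bases, the Klra8 and Klra3 windows at 84.3% of 217, and the Klra3 and Klra7 windows at 84.5% of 207. By the same alignment the Klrc1 window, of a more distant gene, matched that of Klra7 at 65.4% of 153 bases, and neither the Klra1 window nor the first of the 2 Klra7 windows aligned to another Ly49 window over 150 bases or more. TGANTCA was found for 1 of the 8 genes, Klrk1, where it begins 17 bases after the start. That is 1 of 12 member windows, against 7.8% of 32851 windows of all genes. GGTGTGA was found for 1 gene, Klra1 (1 of 12 member windows, 4.0% of all windows). TGTGGT was found for 5 genes, Klrk1, Ncr1, Klrc1, Klra1 and Klre1 (6 of 12 member windows, 16.8% of all windows). Some genes have more than 1 window, and these can overlap. The printed matches did not overlap each other. They are a description of these letters only.

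Several features of the arrays moved with genotype. Bach2 read lower on all 3 of its probe sets in Bach2-deficient tumors, by -1.05, -1.07 and -0.35 on the log2 scale, and 1436515_at alone passed (limma adjusted p = 0.0330). A probe set outside the deleted part checks nothing. The poly-A spike controls read from 9.97 to 10.2 on Bach2-deficient arrays and from 12.0 to 12.4 on WT arrays (log2). The 3′ minus 5′ difference of the Gapdh controls, a sign of RNA quality, averaged 0.591 in both groups, while that of the actin controls averaged 0.745 ± 0.195 in Bach2-deficient tumors and 1.00 ± 0.15 in WT tumors (SD, n = 5 each, exact permutation p = 0.0556). The hybridization controls were lower on the Bach2-deficient arrays (-0.58, exact permutation p = 0.00794). Xist, a marker of female cells, was high on all 5 WT arrays. It was high on 1 of 5 Bach2-deficient arrays, replicate 2, and low on the other 4. Eif2s3y, a gene of the Y chromosome, read from 10.5 to 10.9 on those 4 arrays and from 5.07 to 7.68 on WT arrays. Its lowest value was on Bach2-deficient replicate 2. The labels give no sex, but by these markers sex went largely with genotype. The 10 melanocyte markers listed had a mean level from 11.3 to 12.0 in Bach2-deficient tumors and from 11.8 to 12.2 in WT tumors, so both groups carried the melanoma signal. It was lower in Bach2-deficient tumors, where 0 of the 10 markers read higher and the median difference was -0.31. By the test 3 of 10 fell, against 12.4% of all genes. Of the Bach2-deficient arrays only replicate 1, at 12.0, reached the WT range, and replicates 2 to 5 read from 11.3 to 11.7. Of 4 measured red cell markers, 3 fell, and their mean level ran from 4.17 to 5.79 in Bach2-deficient tumors and from 7.18 to 9.54 in WT tumors. The part of the array controls and of the red cell level in the results was not tested. Technical differences and sex differences that follow genotype cannot be told apart from it.

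NK receptor transcripts were higher in the Bach2-deficient tumors, activating and inhibitory ones alike. Of the 11 probe sets, 10 rose and 0 fell, where 14.1% of all single-gene probe sets rose and 10.1% fell (limma adjusted p under 0.05 over 34945 probe sets). The median difference was 3.38 on the log2 scale, against -0.05 over all single-gene probe sets. On 8 of the 11, every Bach2-deficient array lay above every WT array, which held for 9.81% of all single-gene probe sets. A difference of at least 3 was reached by 6 of the 11 and by 0.492% of all. Taken by gene, each gene standing by its brightest probe set, 8 of 9 rose, against 16.3% of 18193 genes that rose and 12.4% that fell, and for 7 of 9 all Bach2-deficient arrays lay above all WT arrays (11.2% of genes). Klra1 was the exception. The 3 _x_at probe sets of Klra8 and Klra7 may bind transcripts of similar genes, so their rises may not be separate. Without _x_at, _s_at and _a_at probe sets, where Klra8, Klra7 and Klrk1 had none left, 5 member genes rose. Repeated quantile normalization and median centring left 10 probe sets risen. Median centring moved the median of all probe sets by -0.12, and under it 38.2% of all called probe sets were rises, against 58.5% on the deposited scale and 49.4% after repeated quantile normalization.

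**Figure D1:**
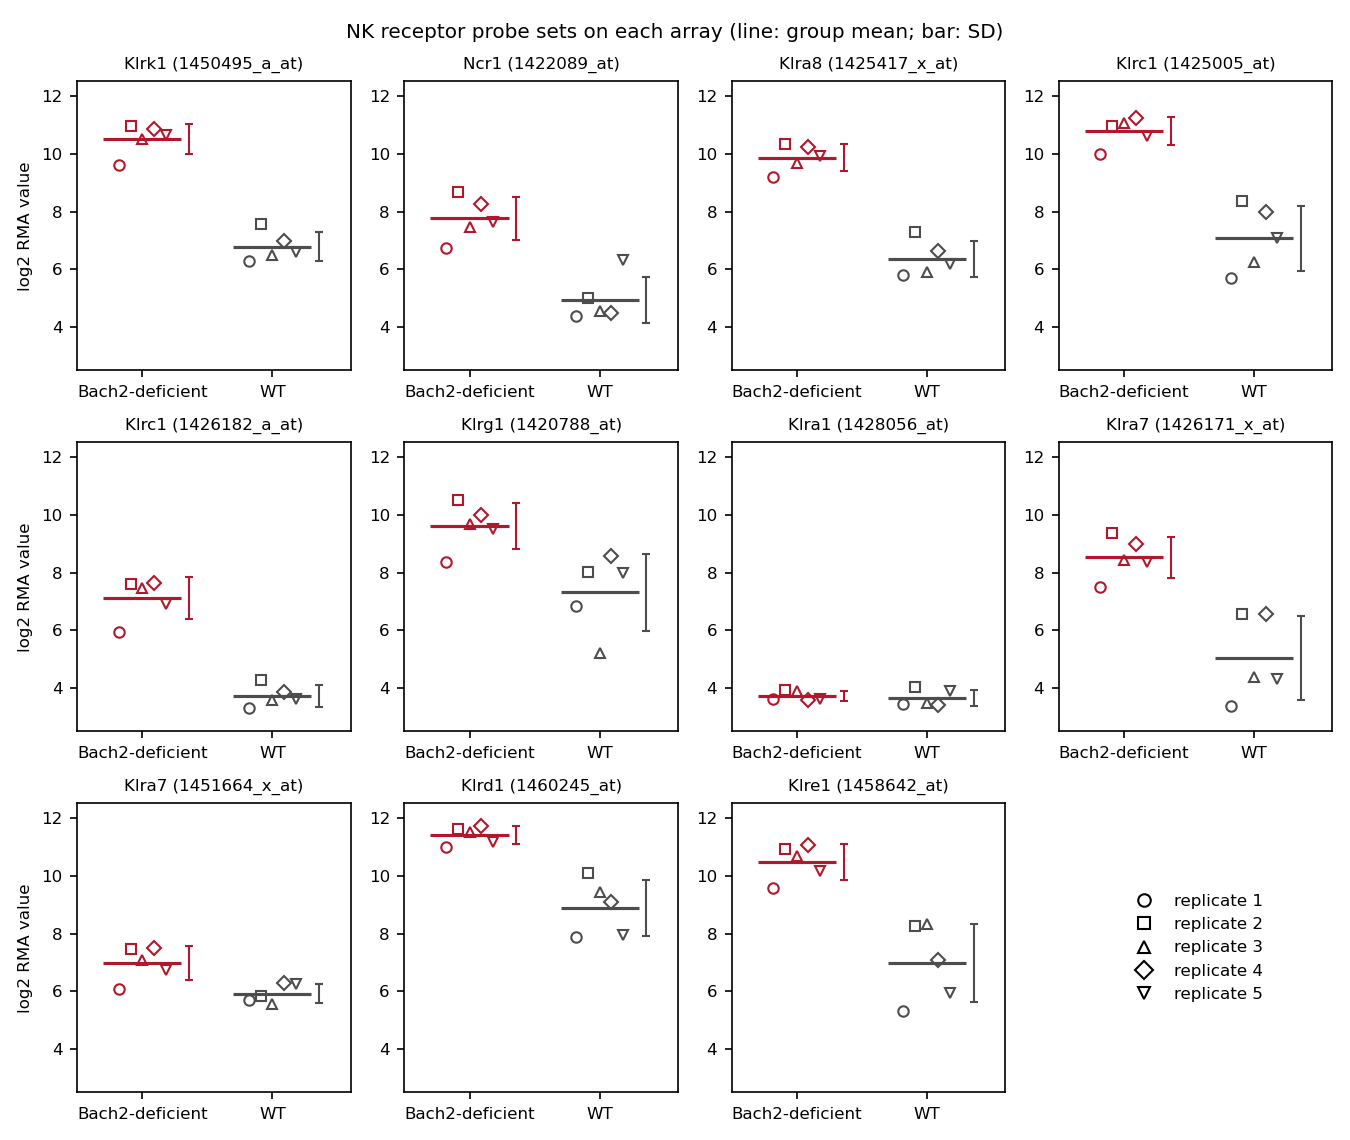
Log2 RMA value (vertical axis) of each NK receptor probe set on the 10 arrays, with Bach2-deficient tumors in red and WT tumors in grey, symbols marking replicates, lines the group means and bars the SD (n = 5 each). The groups are apart on 8 of the 11 panels, overlap for Klrg1 and for the Klra7 probe set 1451664_x_at, and sit together at a low level for Klra1.

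Among the activating receptors, Klrk1 read 9.62, 10.97, 10.51, 10.85 and 10.63 in Bach2-deficient tumors, against 6.28, 7.55, 6.50, 6.99 and 6.60 in WT tumors (replicates 1 to 5). The lowest Bach2-deficient array stood above the highest WT array. The difference was 3.73 (SE 0.30, 95% interval 3.08 to 4.39, 13.3-fold, limma adjusted p = 0.000132). The encoded NKG2D detects stress-induced ligands on tumor cells.

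Ncr1 read 6.75, 8.67, 7.47, 8.27 and 7.63 in Bach2-deficient tumors, against 4.39, 5.01, 4.54, 4.49 and 6.31 in WT tumors. WT replicate 5 stood well above the other WT arrays, yet below all Bach2-deficient arrays. The difference was 2.81 (SE 0.43, limma adjusted p = 0.00165). The WT mean of 4.95 lay just under 4.98, below which the dimmest 30% of genes fall, and without detection calls the size of this rise is not exact.

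Klra8 encodes Ly49H, the activating receptor through which C57BL/6 NK cells recognise mouse cytomegalovirus. Its _x_at probe set read 9.19, 10.33, 9.69, 10.23 and 9.91 in Bach2-deficient tumors, against 5.79, 7.28, 5.90, 6.64 and 6.17 in WT tumors, with no overlap. The difference was 3.51 (SE 0.31, 11.4-fold, limma adjusted p = 0.000178).

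Among the inhibitory receptors, Klrc1 was read by 2 probe sets. The brighter, 1425005_at, read 10.0002, 10.96, 11.05, 11.22 and 10.63 in Bach2-deficient tumors, against 5.69, 8.36, 6.26, 7.98 and 7.10 in WT tumors. The groups were apart, and the WT arrays spread over 2.67 where the Bach2-deficient arrays spread over 1.22. The differences were 3.69 (SE 0.49, limma adjusted p = 0.000791) and, for 1426182_a_at, 3.38 (SE 0.33, limma adjusted p = 0.000244). On that probe set the WT mean was 3.73, under the dim level, so its size is not exact.

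Klrg1, a receptor of late effector NK and CD8 T cells that binds cadherins, rose with less margin. It read 8.36, 10.50, 9.66, 9.998 and 9.50 in Bach2-deficient tumors, against 6.83, 8.002, 5.21, 8.56 and 7.99 in WT tumors. Bach2-deficient replicate 1 fell below WT replicate 4, so the groups overlapped. The difference was 2.29 (SE 0.61, 95% interval 0.93 to 3.64, limma adjusted p = 0.0221). The call was lost without Bach2-deficient replicate 2 (adjusted p = 0.0599) or 4 (adjusted p = 0.0563) and without WT replicate 1 (adjusted p = 0.0510).

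The Ly49 genes with inhibitory products did not read alike. For Klra7 (Ly49G), 1426171_x_at read 7.52, 9.38, 8.43, 8.97 and 8.35 in Bach2-deficient tumors, against 3.37, 6.55, 4.40, 6.57 and 4.31 in WT tumors. The groups were apart, with WT replicates 2 and 4 far above the other 3 WT arrays. Its difference was 3.49 (SE 0.63, limma adjusted p = 0.00357). WT replicates 1, 3 and 5 lay under the dim level of 4.98, so this size is not exact. The second Klra7 probe set, 1451664_x_at, averaged 6.97 ± 0.59 in Bach2-deficient tumors and 5.92 ± 0.33 in WT tumors (SD, n = 5 each), a difference of 1.05 (SE 0.27, limma adjusted p = 0.0196) with overlapping groups. That call was lost without Bach2-deficient replicate 2 (adjusted p = 0.0536) or 4 (adjusted p = 0.0517). The probe sets therefore gave the same direction and different sizes for this gene.

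Klra1 (Ly49A) read from 3.60 to 3.93 in Bach2-deficient tumors and from 3.42 to 4.04 in WT tumors. The Bach2-deficient arrays all lay inside the WT range. The difference was 0.08 (SE 0.15, 95% interval -0.25 to 0.41, limma adjusted p = 0.732), and its sign turned with median centring (-0.041) and with the melanocyte marker mean as a covariate (-0.015). The probe set ranked at the 12.8th percentile of all single-gene probe sets by mean level, and with no detection calls it is not shown to lie above background. A probe set shared by Klra22 and Klra1 read 3.68 ± 0.45 in Bach2-deficient tumors and 3.79 ± 0.84 in WT tumors and did not pass either (-0.10, limma adjusted p = 0.866 over the 45037 probe sets that are no controls).

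Klra3 (Ly49C), a receptor for the MHC class I molecule H2-K of this strain, was read only together with Klra9 (Ly49I). That _x_at probe set read 10.29, 11.15, 10.74, 10.99 and 10.65 in Bach2-deficient tumors, against 4.80, 8.31, 7.41, 7.29 and 8.36 in WT tumors. All Bach2-deficient arrays lay above all WT arrays, and WT replicate 1 was the lowest by far. The difference was 3.53 (SE 0.59, limma adjusted p = 0.00292, where 11.9% of the 45037 probe sets rose). Which of these genes carried the signal cannot be told apart.

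Transcripts of the partner chains rose as well. Klrd1, whose product CD94 forms the heterodimer with NKG2A, read 10.98, 11.61, 11.51, 11.71 and 11.15 in Bach2-deficient tumors, against 7.88, 10.11, 9.43, 9.08 and 7.93 in WT tumors. The groups did not overlap, and the difference was 2.51 (SE 0.40, limma adjusted p = 0.00203). Klre1 read 9.57, 10.91, 10.68, 11.06 and 10.16 in Bach2-deficient tumors, against 5.32, 8.25, 8.33, 7.07 and 5.95 in WT tumors. These groups did not overlap either, and the difference was 3.49 (SE 0.58, limma adjusted p = 0.00239), with the WT arrays spread over 3.01.

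**Figure D2:**
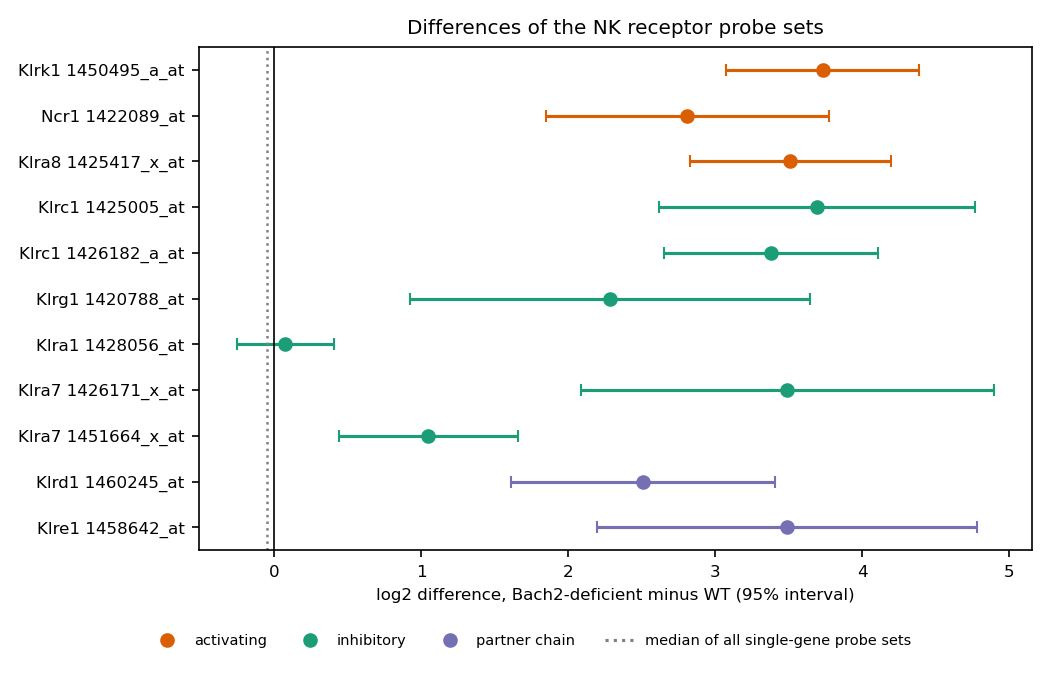
Log2 difference, Bach2-deficient minus WT, of each NK receptor probe set (points) with its 95% interval from the limma fit, coloured by role, and the median of all single-gene probe sets as a dotted line. Intervals of 10 probe sets lie above 0, and that of Klra1 (-0.25 to 0.41) spans it.

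Some tumors had low or high values for all the receptors within their genotype, and others did not. By deviation from the group mean, Bach2-deficient replicate 1 was below it for all 9 genes and Bach2-deficient replicate 2 above it for all 9, and WT replicate 1 was below and WT replicate 2 above for all 9. Bach2-deficient replicate 1 was the lowest of its group for 8 genes, with mean levels of the T cell markers at 8.99 and of the NK and cytotoxic list at 8.07. Bach2-deficient replicate 2 was the highest for 6 genes, with those means at 10.2 and 9.28. WT replicate 1 was the lowest of its group for 7 genes, with a T cell marker mean of 5.77, the lowest of all arrays. The remaining arrays were mixed. WT replicate 3 ran from -2.11 (Klrg1) to 1.35 (Klre1) around the group means, with 2 of 9 genes above, and WT replicate 5 from -1.03 to 1.36, with 4 above. WT replicate 4 was above for 7 genes, and Bach2-deficient replicates 3, 4 and 5 for 5, 8 and 2.

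Xist divided the tumors unevenly between genotypes. The sole Bach2-deficient array with high Xist, replicate 2, stood above all 5 WT arrays, which also had high Xist, on 10 of the 11 probe sets. With Xist class, high or low, as a term, the genotype difference rests on that 1 Bach2-deficient array against the 5 WT arrays. It restates the values of replicate 2 and is no adjusted estimate from all arrays. All 11 differences were larger there (Klrk1 4.19, Klra1 0.28), because replicate 2 was high in its group, above the group mean for all 9 genes. With the melanocyte marker mean as a covariate, the 10 called differences were smaller and 3 probe sets passed. These were Klrk1 (3.12, limma adjusted p = 0.00811), Klra8 (3.01, limma adjusted p = 0.0137) and Klrc1 1426182_a_at (2.53, limma adjusted p = 0.0113). This covariate also went largely with genotype. Only Bach2-deficient replicate 1, at 12.0, lay in the WT range of 11.8 to 12.2. Genotype and marker level are therefore hard to tell apart in that fit.

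Within-array differences asked whether receptor genes moved by the same amount as a partner chain or as Cd8a, a CD8 T cell marker. Probe sets differ in affinity, so only the change of such a difference between groups carries information. Klrk1 minus Cd8a averaged -1.18 ± 0.29 in Bach2-deficient tumors and -0.68 ± 0.79 in WT tumors (SD, n = 5 each), a change of -0.49 that did not pass (exact permutation p = 0.254, adjusted over 4 pairs 0.254). With the mean of all probe sets of each gene that change was -0.68 and passed (exact permutation, adjusted p = 0.0397). Ncr1 minus Cd8a averaged -3.93 ± 0.42 in Bach2-deficient tumors and -2.52 ± 0.70 in WT tumors. The measured rise of Ncr1 was thus smaller than that of Cd8a by 1.41 (exact permutation p = 0.0159, adjusted p = 0.0212, where 0.00794 is the smallest p the design allows). Since the WT level of Ncr1 lay near the dim level, the size of this gap is not exact. Its call was lost without Bach2-deficient replicate 2 (adjusted p = 0.0529) or 5 (adjusted p = 0.0635). The gap is to Cd8a alone, which rose by 4.23. The Ncr1 rise of 2.81 lay inside the range of the 12 measured T cell markers, 1.69 to 4.71 with a median of 2.99.

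Klrc1 and Klrk1 were also set against Klrd1, whose product pairs with that of Klrc1 and not with that of Klrk1. Klrc1 minus Klrd1 averaged -0.62 ± 0.21 in Bach2-deficient tumors and -1.81 ± 0.93 in WT tumors, a change of 1.19 (exact permutation p = 0.0159, adjusted p = 0.0212). Klrk1 minus Klrd1 averaged -0.88 ± 0.33 in Bach2-deficient tumors and -2.10 ± 0.66 in WT tumors, a change of 1.22 with the same p-values. The differences of Klrc1 and Klrk1 were therefore larger than that of Klrd1 on these probe sets. The first call was lost without Bach2-deficient replicate 2 (adjusted p = 0.0529) and without 3, 4 or 5 (adjusted p = 0.0635 each), and the second without 2 (0.0529) or 5 (0.0635). These fits hold 4 arrays against 5.

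**Figure D3:**
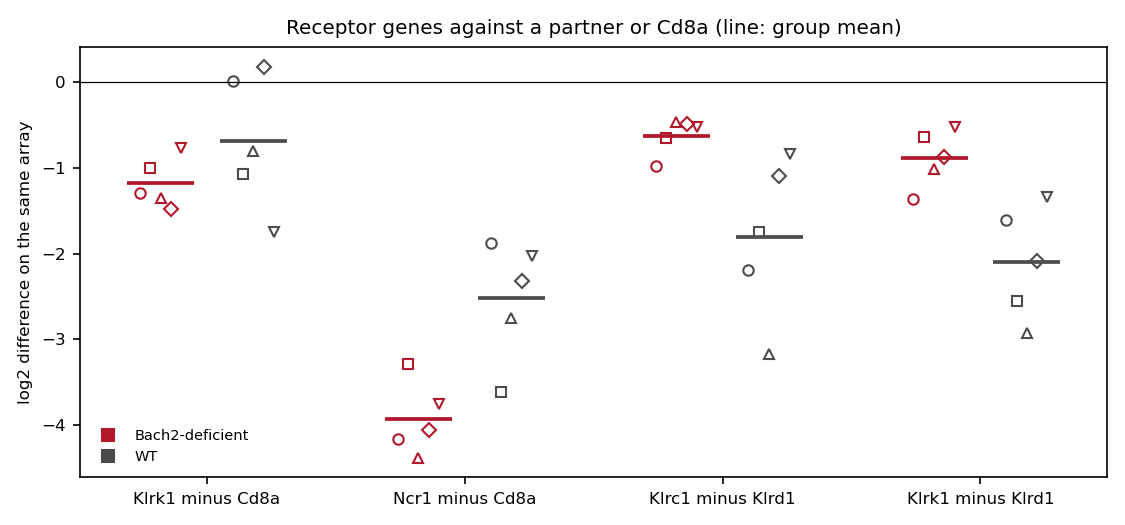
Log2 value of 1 gene minus that of another on the same array (vertical axis) for 4 pairs, with Bach2-deficient tumors in red left of WT tumors in grey, symbols marking replicates 1 to 5 (circle, square, triangle, diamond, inverted triangle) and lines the group means. Ncr1 minus Cd8a is lower, and Klrc1 minus Klrd1 and Klrk1 minus Klrd1 are higher, on average in Bach2-deficient tumors, with some overlap of the groups in each pair.

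Other lectin-like receptor genes of the same cluster were measured for 9 of 18 listed. Of these 5 rose and 0 fell, with a median of 0.85 against -0.06 over all genes, of which 16.3% rose and 12.4% fell. Klrb1b, an inhibitory NKR-P1 receptor that binds the lectin-like ligand Clr-b, differed by 3.25 (SE 0.40, limma adjusted p = 0.000465), and its 5 probe sets gave from 3.25 to 3.95. Klrb1a rose by 2.95 and Klra2, a Ly49 gene expressed in myeloid cells, by 2.94. The NK1.1 gene Klrb1c was read only with Klrb1b, and that probe set rose by 2.35 (limma adjusted p = 0.00275). Klrc3 (0.08), Clec12b (0.28) and Klrc2 (0.60) did not pass, nor did Klrb1f by its brighter probe set (0.65, limma adjusted p = 0.120). The mean of both Klrb1f probe sets gave 1.67 and passed (limma adjusted p = 0.0055), which made the count 6. Klrc3 and Klrc2 were also read together, and that shared probe set rose (0.76, limma adjusted p = 0.0180).

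Transcripts of adaptors and signalling proteins that the receptors use rose as well. Which cells of the tumors they came from was not tested. Of 16 measured genes 15 rose, with a median of 2.22 (16.3% of all genes rose). Hcst, encoding the NKG2D adaptor DAP10, averaged 9.18 in Bach2-deficient tumors and 6.57 in WT tumors, a rise of 2.62 (SE 0.30, limma adjusted p = 0.000370). Tyrobp, encoding DAP12, the adaptor of Ly49H, rose by 1.02, and Fcer1g, which serves NKp46, by 1.03. Myeloid cells use both of these adaptors as well, and 8 of 9 macrophage markers rose too. Cd247, encoding the ζ chain shared by NKp46 and the T cell receptor, rose by 3.48 on its brightest probe set and by 1.82 over the mean of its 4. Sh2d1a, encoding the adaptor SAP, rose by 3.01 and Lat by 2.75. Ptpn11, encoding the phosphatase SHP-2, did not pass (-0.24, limma adjusted p = 0.0643).

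Ligands gave a divided picture. Of the NKG2D ligands only H60c (-0.60, limma adjusted p = 0.124) and Ulbp1 (0.19, limma adjusted p = 0.675) had a probe set of their own among 9 listed, and neither passed (0 of 2 also at an unadjusted limma p under 0.05). A probe set shared by Raet1e and Raet1d did not pass either (-0.38, limma adjusted p = 0.281). Of 7 measured ligand genes of inhibitory receptors, 5 rose and 2 fell (16.3% and 12.4% of all genes). H2-K1 and H2-D1, the class I heavy chains seen by Ly49 receptors, averaged 12.8 each in Bach2-deficient tumors and 11.4 each in WT tumors. Both rose by 1.45, H2-D1 by 0.90 over the mean of its 9 probe sets. The values of 1.45 come from _x_at probe sets, which may bind transcripts of both genes, so these rises may not be separate. Without _x_at, _s_at and _a_at probe sets H2-D1 rose by 1.35 and H2-K1 had none left. B2m rose by 0.30 (limma adjusted p = 0.0224), a call that was lost without Bach2-deficient replicate 2 or 4 (adjusted p = 0.0555 and 0.0599) and with median centring (0.14, adjusted p = 0.193). The probe sets shared by H2-T23, which encodes the NKG2A ligand Qa-1, and H2-T-ps disagreed, with 2.52 (limma adjusted p = 0.000265) on 1449556_at and 0.34 (limma adjusted p = 0.526) on 1419658_at. Clec2d, encoding Clr-b, rose by 1.63.

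Transcripts of the cadherins that KLRG1 binds moved in opposite directions. Cdh1 (E-cadherin) averaged 9.72 in Bach2-deficient tumors and 7.40 in WT tumors, a rise of 2.32 (SE 0.59, limma adjusted p = 0.0156) with overlapping groups. Cdh2 (N-cadherin) fell by 1.29 (SE 0.26, limma adjusted p = 0.00508), with no overlap. Cdh4 (R-cadherin) differed by -0.76 (limma adjusted p = 0.0344), and that call was lost when 1 array was omitted in 6 of 10 cases, without Bach2-deficient replicate 1, 2, 4 or 5 or WT replicate 1 or 3 (adjusted p up to 0.0804), and the mean of its probe sets gave -0.38.

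**Figure D4:**
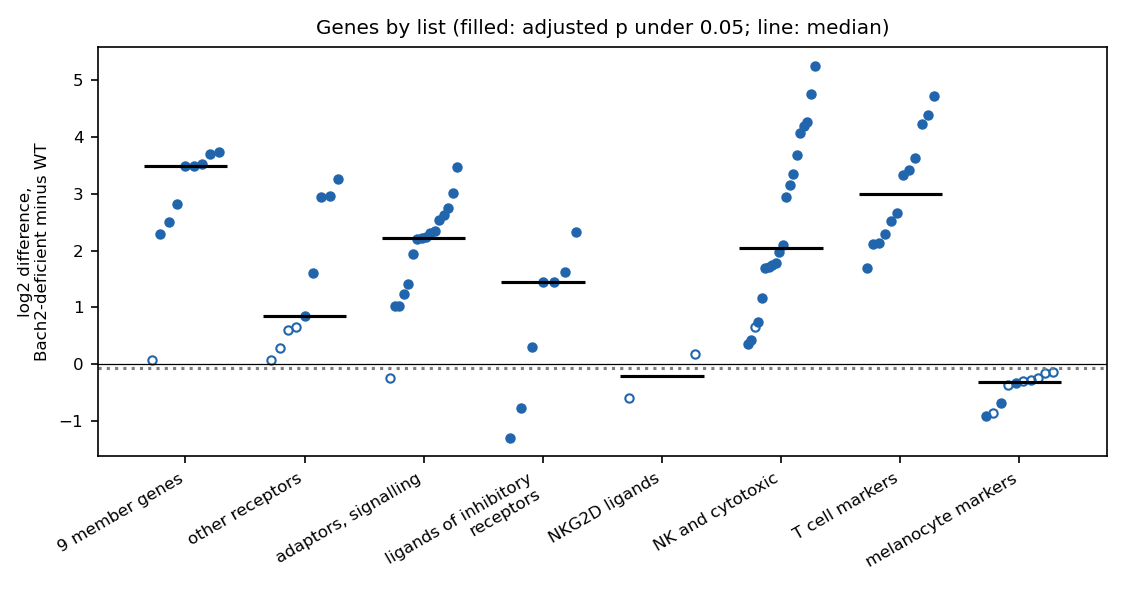
Log2 difference, Bach2-deficient minus WT (vertical axis), of each measured gene by list, filled where the limma adjusted p was under 0.05, with list medians as lines and the median of all genes dotted. Member genes (median 3.49) lie beside the T cell markers (2.99) and the NK and cytotoxic list (2.04), while the 2 NKG2D ligands are open points at -0.60 and 0.19.

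Genes of NK and T cells moved with the receptors. On the NK and cytotoxic list, 19 of 20 measured genes rose, with a median of 2.04 (16.3% of all genes rose). Gzmb (5.25), Fasl (4.75) and Gzma (4.27) had the largest differences, and Prf1 (0.37), Id2 (0.43) and Il12rb2 (0.66, not passed) the smallest. The Prf1 call was lost in 9 of 10 cases when 1 array was omitted, all but that without Bach2-deficient replicate 1 (adjusted p from 0.0518 to 0.118 in those 9), while the mean of its probe sets gave 1.79, and that of Id2 0.77. Eomes (3.67) and Tbx21 (4.06), the T-box factors of NK cells and effector CD8 T cells, were named after their values were seen. All 12 measured T cell markers rose, with a median of 2.99, from 1.69 for Cd4 to 4.71 for Cd8b1. The WT means of Fasl, Eomes, Tbx21, Cd8b1 and Cd247 lay under the dim level of 4.98, so the sizes given for them, and their order, are not exact. The mean of the T cell markers ran from 8.99 to 10.4 in Bach2-deficient tumors and from 5.77 to 7.21 in WT tumors, without overlap, and that of the NK and cytotoxic list from 8.07 to 9.28 in Bach2-deficient tumors and from 5.86 to 6.65 in WT tumors. Of 5 measured B cell markers 0 passed by limma (0 at an unadjusted p under 0.05). The share of NK and of T cells in the receptor signals was not tested.

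By profile over the 10 arrays, each centred on its own mean, the closest pair of members was Klrk1 and Klra8, with a root mean square difference of 0.162 on the log2 scale. Outside the members, Klrk1 lay closest to Batf2 (0.260), Skap1 (0.284) and Ccl1 (0.298), and the same 3 genes were closest to Klra8. Klrc1 lay closest to Stk26 (0.220) and Gimap4 (0.243), Klrd1 to Nlrc5 (0.243), and Klra7 to Gimap4 (0.282). Ncr1 (Pstpip2, 0.367), Klrg1 (Tmem229b, 0.461) and Klre1 (Acap1, 0.514) had their closest profiles farther off. Part of every such likeness is the genotype difference that the profiles share.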

How the data were processed

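RNA of 10 dissociated B16 tumors was read on Affymetrix mouse expression arrays. The deposited table holds log2 values made by the authors with RMA and Partek, per the submitters' processing notes (versions not given in the sources used here). RMA corrects background, normalizes quantiles and summarises probes. The values were used as deposited. They ran from 1.99 to 14.4. Detection calls were not used. Precision is limited by the number of arrays.

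Of 45101 probe sets, 64 were controls, 34945 had 1 gene symbol in the platform annotation, 932 several and 9160 none. Differences, Bach2-deficient minus WT, came from limma (version 3.58.1, under R 4.3.3, lmFit and eBayes, 2-sided) over all single-gene probe sets with 10 arrays, and Benjamini-Hochberg adjusted over them. List genes were fitted by their brightest probe set over 18193 genes. Values of members come from the first fit and those of other genes from the second. Probe sets with several symbols were taken from a fit over all 45037 that are no controls. A value rose or fell at an adjusted p under 0.05. Within-array differences used exact permutation over 252 splits. The fit was tested on simulated data. No genome build is named in the files, and promoters come from RefSeq.

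Members and lists were chosen with earlier results of these data known. From each list the 3 largest and 3 smallest differences and known partners of members were to be named, and not all are. Alternatives were normalization, a filter on dim probe sets, moderation, array weights, the replicate block, an Xist term, a melanocyte covariate, the probe set of a gene and each array left out.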

Additional observations from a re-analysis of the deposited data

How the results depend on the processing

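Of the 10 probe sets that rose, 8 passed in each of the 10 fits that left out 1 array, and the count of rises there ran from 8 to 10. Without 1 array, the difference of Klrg1 ran from 1.76 to 2.60 and that of Klra7 1451664_x_at from 0.92 to 1.27. Ncr1 minus Cd8a ran from -1.69 to -1.25, Klrc1 minus Klrd1 from 0.84 to 1.43 and Klrk1 minus Klrd1 from 1.02 to 1.42. Over all probe sets falls numbered 2030 to 4336 (3513 with all arrays) and over all genes 1388 to 2807 (2264), lowest without Bach2-deficient replicate 2 and, at 2100 and 1447, without replicate 4. Repeated quantile normalization, the dim filter, moderation and array weights kept all 10 rises. Median centring gave 6670 falls of probe sets and 4816 of genes.

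With the Xist term 1374 probe sets rose and 477 fell (genes 1030 and 387). Of the members 5 probe sets rose, and 5 genes in the fit over genes, where p-values are adjusted over fewer tests and Klra7 passed too (limma adjusted p = 0.0453). In the fit over probe sets Klrg1 (3.18), Klra7 (4.34 and, on 1451664_x_at, 1.54), Klrd1 (2.72) and Klre1 (3.93) did not pass. Among listed genes 3 other receptors and 2 ligands of inhibitory receptors rose. With the melanocyte covariate 540 probe sets rose and 240 fell (genes 425 and 174), and 3 member probe sets rose, as did 3 genes, Klrk1, Klra8 and, in the fit over genes alone by 1425005_at, Klrc1 (limma adjusted p = 0.0426). In the fit over probe sets Ncr1 (2.06), Klrc1 1425005_at (3.33), Klrg1 (1.93), Klra7 (2.83 and 0.50), Klrd1 (1.89) and Klre1 (2.34) did not pass. Of the lists 3 other receptors, 9 adaptors, 2 ligands, 9 NK and cytotoxic genes and 5 T cell markers rose. The cause was not tested.

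Klra1 turned to -0.041 with median centring and -0.015 with the covariate. Klrb1f turned to -0.060 and H60c to 0.00046 with the covariate, Klrc3 to -0.082 with median centring and -0.051 without Bach2-deficient replicate 5 (up to 0.15 without another array), and Ulbp1 to -0.041 without WT replicate 1 (up to 0.43). Without _x_at, _s_at and _a_at probe sets Klra8, Klra7 and Klrk1 had none left, so 5 member genes rose, and 3 ligand genes did. Zap70 turned there to -0.025 (2.21 by its brightest, an _x_at). Klrk1 minus Cd8a passed with the mean of probe sets (-0.68). Klra17, counted as risen (0.85), lost its call in 6 of 10 such fits.

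The labels do not say whether samples with the same replicate number were paired. Their deviations correlated at 0.0062 to 0.323, and replicates 1 and 3 alone correlated best with their own number. With the replicate block 10 member probe sets rose and 4620 did over all (4944 without it). Depth has no counterpart here. Dim probe sets, such as that of Klra1, limit what can be seen.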
